A study of Homo sapiens with 26 samples.

Results

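The proteasome subunit genes described here are the 44 genes, of 17687 named genes measured, whose symbol is PSM followed by a letter from A to G and a number. Each was read by 1 probe set. They comprised 7 alpha and 7 standard beta subunits of the 20S core, 3 immunoproteasome subunits and 2 tissue-specific core subunits. The 19S regulatory particle was represented by 5 ATPases, 3 other base subunits and 6 lid subunits. The remaining members were 4 activators or inhibitors, 3 chaperones of 19S assembly and 4 chaperones of 20S assembly. The family lists written for this work held 48 genes, and PSMC5, PSMD7, PSMD13 and PSME2 were not analysed here.

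RNA was profiled on 26 single-colour arrays of 3 human lung cancer lines that received either Omomyc at 12.8 µM in the culture medium or the vehicle PBS (phosphate-buffered saline). The Omomyc miniprotein derives from the MYC dimerization domain and occupies both MAX and the DNA sites of MYC. The groups were H1975 with Omomyc (5 arrays) and PBS (4 arrays), A549 with Omomyc (3 arrays) and PBS (4 arrays), and H1299 with Omomyc (5 arrays) and PBS (5 arrays). Each line is a single established culture, so a difference between lines is one between 3 cultures and not between tumour types, and no label states the exposure time.

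The proteasome degrades proteins tagged with ubiquitin. Its 20S core is a barrel of alpha and beta rings with the cutting sites inside, and the 19S particle recognises, unfolds and feeds in the substrate by ATP hydrolysis. Interferons replace the catalytic beta subunits by PSMB8, PSMB9 and PSMB10, and the resulting immunoproteasome favours peptides that fit MHC class I. The alternative cap PSME1/PSME2 is also induced by interferon, whereas PSME3 forms a nuclear cap, and NFE2L1 is the transcription factor best known for raising most subunit genes together when proteasome activity falls.

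All levels are deposited log2 values, and a difference of 1 is a doubling or halving on that scale. Values of the array's 23 background probe sets averaged 2.34 to 6.69. By this measure 42 members were above background in every group, with group means of 7.04 to 16.08. The testis-restricted alpha subunit PSMA8 and the thymus-restricted beta subunit PSMB11 had group means of 2.71 to 3.45, and were not above background in any group. By the shape of their whole value distributions the arrays were split into 3 clusters of 9, 10 and 7 arrays, called runs here. No label names such a batch, and what sets the runs apart is not known. A549 had no Omomyc array in run 3. No group had over 2 arrays in a run and many had 1, so values given by run often compare single arrays. Markers went with the line names where these could be checked: AKR1B10, high in A549, averaged 17.10 ± 0.22 in A549 PBS arrays (SD, n = 4) and at most 3.75 in PBS arrays of the other lines. The leukocyte and endothelial genes PTPRC, CD3E, PECAM1 and VWF had group means of 2.71 to 3.88, all in the background range. The macrophage gene CD68 was at 9.09 to 14.35, and the epithelial gene CDH1 was at background in H1975 and H1299. Each comparison was made with limma on all named genes, differences are given with their SE, and genes with a Benjamini-Hochberg adjusted p under 0.05 count as called. The labels call the arrays of a group biological replicas without saying whether they came from separate cultures, and the p-values measure the spread between these arrays. Bulk arrays cannot tell less RNA per cell from fewer cells of a kind.

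Many members, like many of all genes, differed between the lines in the absence of Omomyc. In PBS arrays 20 of 44 members (45.5%) were called between H1975 and A549, where 38.3% of all genes were called. Of these, 12 were higher in H1975 and 8 lower, beside 20.3% and 18.0% of all genes. Between H1975 and H1299 25 members (56.8%) were called, beside 42.0% of all genes, 18 of them higher in H1975 and 7 lower (21.2% and 20.8% of all genes). Between A549 and H1299 23 members (52.3%) were called, beside 41.5% of all genes, 13 of them higher in A549 and 10 lower (19.0% and 22.5% of all genes). The 3 contrasts share arrays. The range of a member's 3 PBS means had a median of 1.00 and ran from 0.22 for PSMD5 to 5.25 for PSMB9. Of the 44 members, 10 were called in none of the contrasts and 7 in all of them, namely PSMB8, PSMB9, PSMC2, PSMC4, PSMD11, PSMD14 and PSME3.

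**Figure D1:**
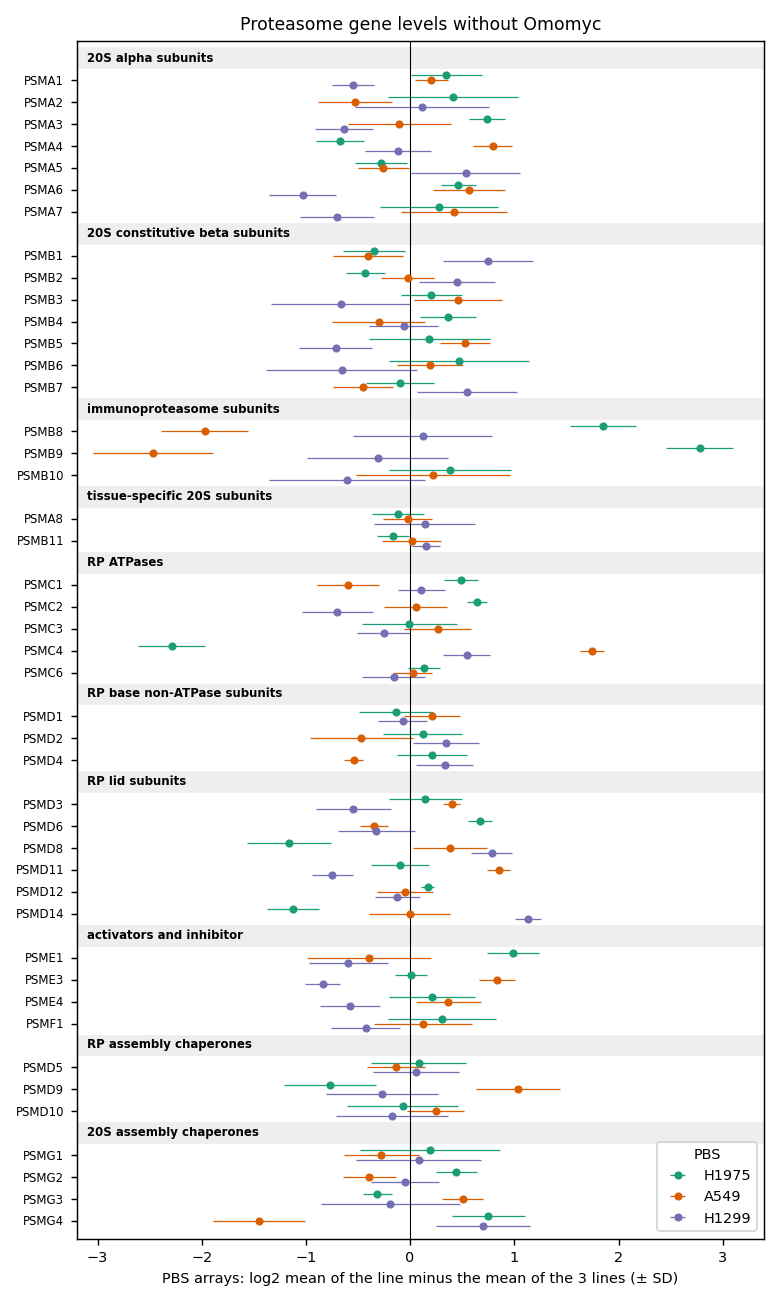
PBS level of each of the 44 members by line, as the log2 mean of the line minus the mean of the 3 lines, with the SD over arrays (n = 4 H1975, 4 A549 and 5 H1299 arrays; RP, the 19S regulatory particle). PSMB8 and PSMB9 lie highest in H1975 and lowest in A549 (5.25 apart for PSMB9), PSMC4 lies lowest in H1975 (a difference of -4.03 from A549), and PSMG4 lies lowest in A549.

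PSMB9, the immunoproteasome subunit that takes the place of PSMB6, had the widest range between lines of all 44 members. It read 13.59, 13.47, 12.91 and 13.07 in H1975 PBS arrays. Its A549 PBS values were 8.26, 8.16, 8.45 and 7.17, and its H1299 PBS values were 10.08, 10.73, 10.95, 9.77 and 9.31. The 3 lines did not overlap, with H1975 highest, H1299 between and A549 lowest. H1975 exceeded A549 by 5.25 ± 0.33 (SE, limma adjusted p = 6.9e-14) and H1299 by 3.09 ± 0.31 (adjusted p = 1.7e-09). A549 lay below H1299 by a log2 difference of -2.16 ± 0.31 (adjusted p = 1.2e-06). Within the runs taken one at a time, the excess of H1975 over A549 was 5.37, 4.73 and 5.91. H1975 had 1 PBS array in runs 1 and 3, and A549 had 1 in runs 2 and 3.

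PSMB8, which takes the place of PSMB5, had the same order. Its PBS values were 12.61, 12.29, 11.93 and 11.97 in H1975 and 8.43, 8.10, 8.95 and 8.04 in A549. In H1299 they were 10.39, 10.75, 11.42, 10.16 and 9.63, and again no line overlapped another. The differences were 3.82 ± 0.33 for H1975 minus A549 (limma adjusted p = 6.4e-11), 1.73 ± 0.31 for H1975 minus H1299 (adjusted p = 2.9e-05) and -2.09 ± 0.31 for A549 minus H1299 (adjusted p = 1.8e-06). PSMB10, which takes the place of PSMB7, did not follow. It read 8.77, 8.27, 7.71 and 7.47 in H1975 PBS arrays, 8.42, 8.05, 8.29 and 6.80 in A549 PBS arrays, and 6.80, 7.69, 7.83, 5.97 and 7.04 in H1299 PBS arrays. The lines overlapped, and none of its 3 contrasts was called (log2 differences 0.16 ± 0.47, 0.99 ± 0.44 and 0.82 ± 0.44, adjusted p = 0.84, 0.077 and 0.15). With run as a block the excess of H1975 over H1299 was called (0.82, adjusted p = 0.034).

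PSME1, a subunit of the interferon-induced cap, was higher in H1975 only. It read 11.93, 11.90, 11.64 and 11.39 in H1975 PBS arrays, 10.50, 10.25, 11.00 and 9.58 in A549 PBS arrays, and 9.98, 10.46, 10.61, 9.80 and 9.80 in H1299 PBS arrays. All H1975 arrays stood above all arrays of the other lines, which overlapped each other. The difference was 1.38 ± 0.33 from A549 (limma adjusted p = 0.00096) and 1.58 ± 0.31 from H1299 (adjusted p = 9.6e-05), and A549 minus H1299 was 0.20 with a 95% interval of -0.43 to 0.84. In run 2 alone the excess over A549 was 0.77 and was not called (adjusted p = 0.25). From a list of 8 measured interferon and antigen-processing genes, 7 were called higher in H1975 than in A549, beside 20.3% of all genes. Among them were NLRC5, the transactivator of MHC class I genes (3.48 ± 0.34), B2M, the class I light chain (2.44 ± 0.22), and the peptide transporter genes TAP1 (2.14 ± 0.38) and TAP2 (1.98 ± 0.39). Against H1299, 5 of the 8 were called higher and 1 lower in H1975, beside 21.2% and 20.8% of all genes. A549 against H1299 had 1 higher and 3 lower, beside 19.0% and 22.5% of all genes, with NLRC5 at 0.13 (adjusted p = 0.81). In PBS arrays NLRC5 averaged 6.87 in H1975 (5.78 to 7.95), 3.38 in A549 and 3.26 in H1299. TAP1 averaged 6.14 in A549 and 6.54 in H1299. For both genes A549 and H1299 lay in the background range of up to 6.69, so these lines could not be compared there.

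The sequences of the 250 bases before the start sites of PSMB9 and PSMB10 are shown because the levels of the 2 genes were unlike across the lines. They are from RefSeq (GRCh38.p14; PSMB9 chr6:32853942-32854191, plus strand; PSMB10 chr16:67936851-67937100, minus strand), printed along the gene's strand. Capitals mark every match, on either strand, to 5 short motifs: CACGTG (E-box, the site MYC and MAX bind), TGACNNNGC (the core of the antioxidant response element), the interferon-stimulated response element (a pair of GAAA with 2 bases between them), CCAAT and GGGCGG (GC box).
PSMB9: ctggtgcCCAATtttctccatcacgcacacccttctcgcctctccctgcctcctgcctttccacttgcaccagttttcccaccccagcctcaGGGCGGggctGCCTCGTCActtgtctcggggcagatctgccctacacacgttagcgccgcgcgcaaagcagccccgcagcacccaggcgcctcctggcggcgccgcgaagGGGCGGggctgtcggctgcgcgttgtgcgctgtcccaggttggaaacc
PSMB10: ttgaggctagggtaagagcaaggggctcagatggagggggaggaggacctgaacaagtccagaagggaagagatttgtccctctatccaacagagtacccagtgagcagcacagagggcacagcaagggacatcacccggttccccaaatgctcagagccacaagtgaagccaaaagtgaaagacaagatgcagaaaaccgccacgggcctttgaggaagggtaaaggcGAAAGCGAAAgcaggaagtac
In PSMB9 the capitals are a CCAAT box, 2 GC boxes and the antioxidant core, with no overlap between matches. The PSMB10 window holds the interferon-stimulated element as its single match. Of 46 RefSeq promoters of 38 measured members, 4 (8.7%) held the interferon-stimulated element, beside 3.02% of 35116 promoters of all genes. The antioxidant core was in 11 (23.9%), beside 10.91%, the CCAAT box in 17 (37.0%), beside 32.01%, and the GC box in 26 (56.5%), beside 42.64%. A match describes the letters only.

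**Figure D2:**
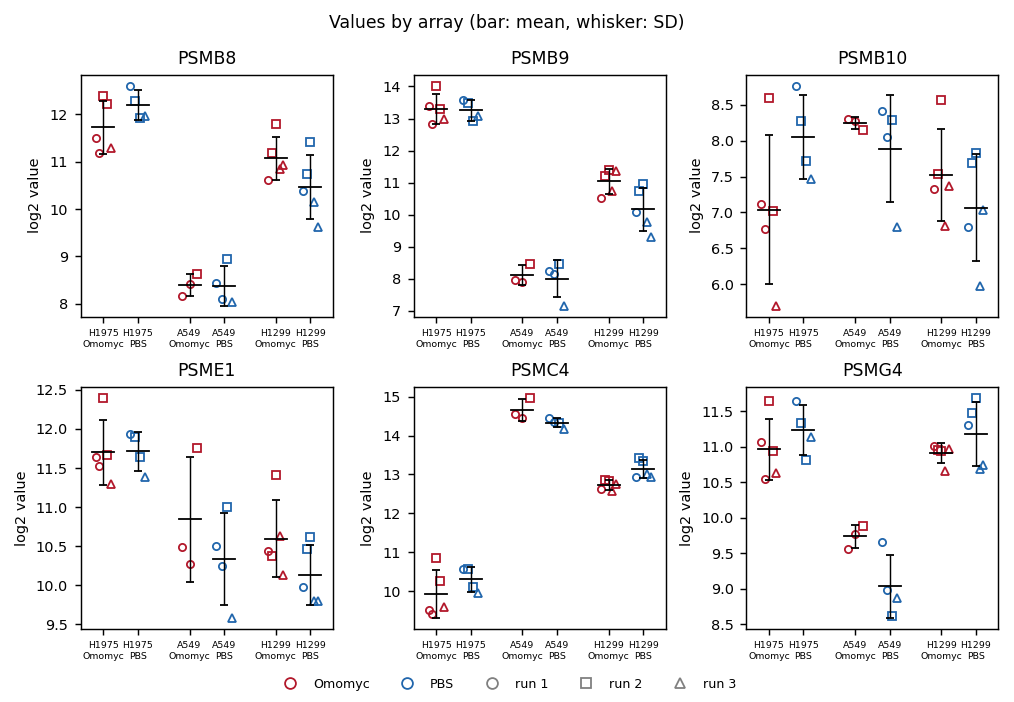
Every array's log2 value for PSMB8, PSMB9, PSMB10, PSME1, PSMC4 and PSMG4, with Omomyc (red) left of PBS (blue) within each line, symbols by run, a bar at each group mean and whiskers of 1 SD. The PBS arrays of the 3 lines are apart for PSMB8 and PSMB9 and overlap for PSMB10, PSMC4 is lowest in H1975, and PSMG4 is lowest in A549.

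Among the other members, the ATPase PSMC4 had the largest contrasts. This motor subunit read 10.57, 10.57, 10.10 and 9.95 in H1975 PBS arrays and 14.46, 14.35, 14.32 and 14.18 in A549 PBS arrays. In H1299 it read 12.94, 13.41, 13.34, 13.02 and 12.94, so that the lines were apart with H1975 lowest and A549 highest. The log2 difference of H1975 was -4.03 ± 0.25 from A549 (limma adjusted p = 4.7e-14) and -2.83 ± 0.23 from H1299 (adjusted p = 3e-11), and A549 minus H1299 was 1.20 ± 0.23 (adjusted p = 0.0001). The H1975 minus A549 difference within runs was -3.83, -3.99 and -4.23. The other ATPases did not share this order: PSMC1 was 1.09 ± 0.18 higher in H1975 than in A549, PSMC2 was 0.59 ± 0.23 higher, and PSMC3 and PSMC6 were called in no contrast between lines.

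PSMD14, the lid's deubiquitinase, read 11.31, 11.77, 11.34 and 11.21 in H1975 PBS arrays, 13.03, 12.10, 12.58 and 12.41 in A549 PBS arrays, and 13.81, 13.57, 13.78, 13.65 and 13.53 in H1299 PBS arrays. No line overlapped another, with H1299 highest, A549 between and H1975 lowest. The log2 differences were -1.12 ± 0.21 for H1975 minus A549, -2.26 ± 0.20 for H1975 minus H1299 and -1.14 ± 0.20 for A549 minus H1299 (limma adjusted p = 6.6e-05, 1.2e-10 and 2.4e-05). The lid subunit PSMD8 was likewise lower in H1975, by log2 differences of -1.54 ± 0.24 from A549 and -1.94 ± 0.23 from H1299. PSMD11, a lid subunit that helps hold the regulatory particle to the core, was highest in A549 (1.60 ± 0.20 above H1299), and PSMD6 was 1.01 higher in H1975 than in A549.

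Of the 14 standard core subunits, 4 were called between H1975 and A549, 11 between H1975 and H1299 and 9 between A549 and H1299. Of all genes, 38.3%, 42.0% and 41.5% were called in these contrasts. PSMA4 was lower in H1975 than in A549 (log2 difference -1.47 ± 0.25, limma adjusted p = 2.3e-05). PSMA6 was lowest in H1299, with H1975 minus H1299 at 1.49 ± 0.20 and A549 minus H1299 at 1.60 ± 0.20. PSMB1 was highest in H1299, with log2 differences of -1.10 ± 0.26 for H1975 and -1.15 ± 0.26 for A549. PSMB5, the subunit with chymotrypsin-like activity that bortezomib blocks, was lowest in H1299 (H1975 0.90 ± 0.25 and A549 1.24 ± 0.25 above it). The core thus had subunits above and below in the same pair of lines.

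Among assembly chaperones, PSMG4, which helps build the alpha ring, was lowest in A549. It read 11.65, 11.34, 10.81 and 11.14 in H1975 PBS arrays, 9.66, 8.98, 8.62 and 8.87 in A549 PBS arrays, and 11.30, 11.48, 11.69, 10.68 and 10.74 in H1299 PBS arrays. A549 stood apart below both other lines, which overlapped. H1975 exceeded A549 by 2.20 ± 0.26 (limma adjusted p = 4.6e-08), A549 minus H1299 was -2.15 ± 0.25 (adjusted p = 2.5e-08), and H1975 minus H1299 was 0.06 with a 95% interval of -0.45 to 0.56. PSMD9, a chaperone of the 19S base, was highest in A549, with H1975 minus A549 at -1.81 ± 0.30 and A549 minus H1299 at 1.30 ± 0.28. NFE2L1 itself was higher in A549, where H1975 minus A549 was -1.38 ± 0.17 and A549 minus H1299 was 1.76 ± 0.16.

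Omomyc lowered 7 of 44 proteasome genes in H1299, 1 in H1975 and none in A549 by the test, and raised none. Over all genes 5.57% were called higher in H1975, 0.916% in A549 and 4.35% in H1299. In H1299 the 7 were 15.9% of the members, beside 4.52% of all genes that were called lower and 8.87% called in either direction. They were PSME3, the lid subunits PSMD14 and PSMD11, the base subunit PSMD1, the ATPases PSMC2 and PSMC3, and the alpha subunit PSMA4. The median log2 change of the 44 members in H1299 was -0.26, beside 0.00 over all genes, and 31 of the 44 were negative, as were 49.8% of all genes. In H1975 the called share was 2.27%, beside 11.8% of all genes (6.28% called lower), with 27 negative members and a median of -0.06. In A549 no member was called by limma, 2 (4.55%) had an unadjusted p under 0.05, beside 8.72% of all genes, 1.19% of all genes were called (0.277% lower) and the median was 0.03. Centring each array on its median adds 0.11 to the H1975 change of every gene, members and others alike. The members' median there becomes 0.05, and their place relative to all genes stays as it was. In H1299 centring adds 0.04, and the members' median remains negative at -0.22.

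**Figure D3:**
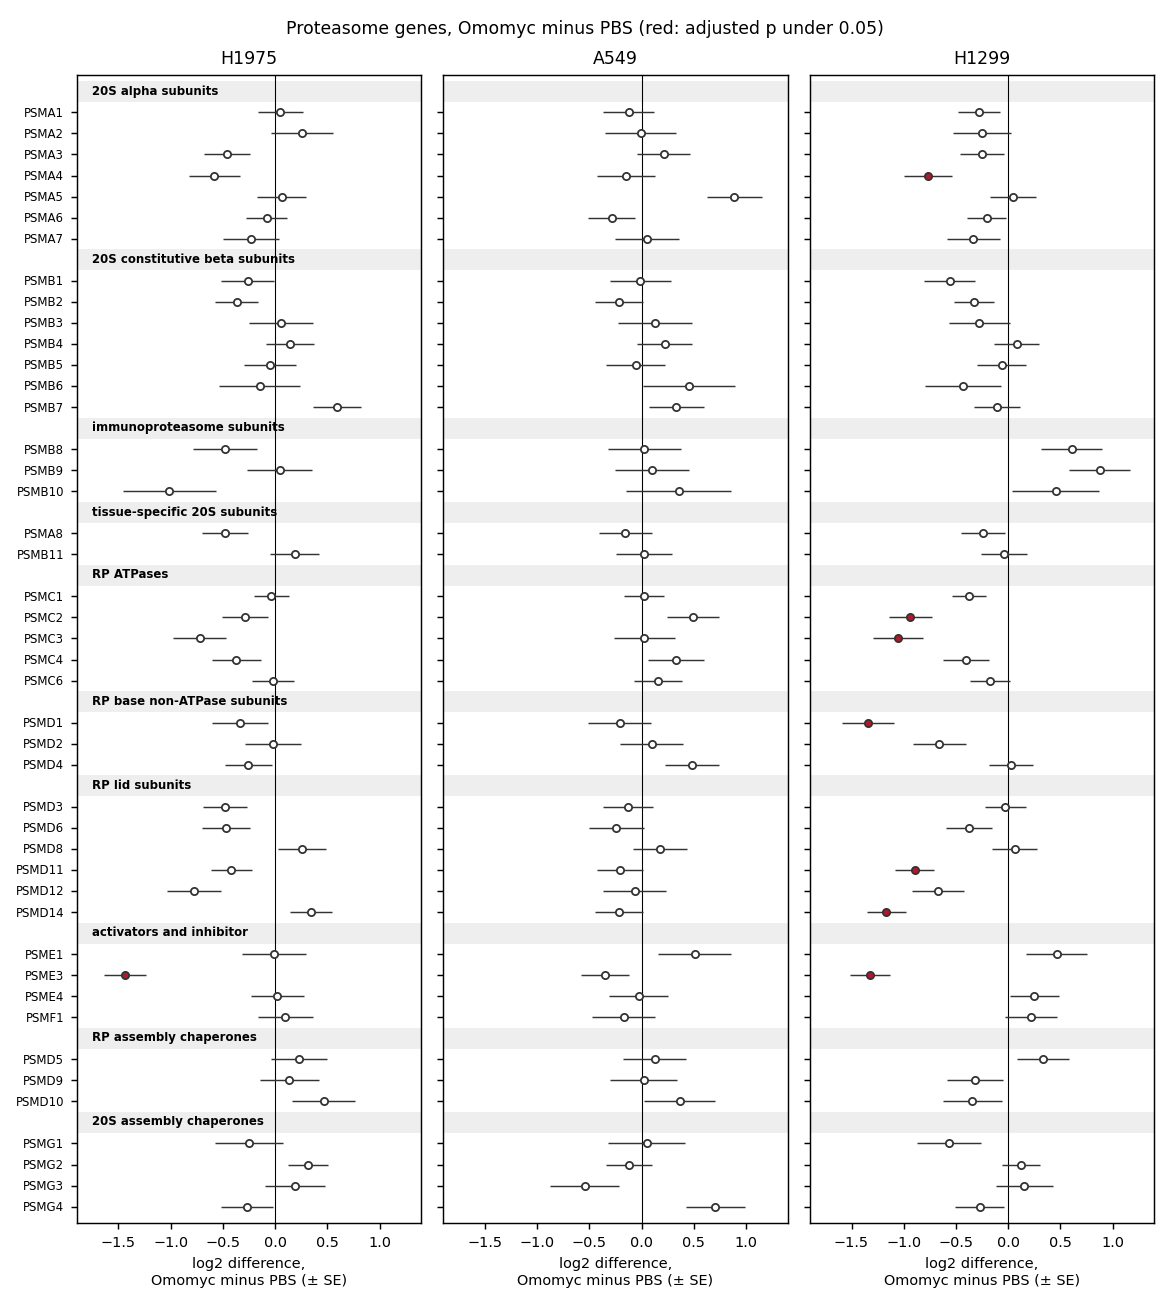
Log2 change with Omomyc (Omomyc minus PBS) of each of the 44 members in each line, with bars of 1 SE of the limma fit, grouped by role (RP, the 19S regulatory particle). Red points passed an adjusted p under 0.05: 7 members in H1299, 1 in H1975 and 0 in A549.

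PSME3, the nuclear cap subunit, fell in both H1975 and H1299. It read 10.91, 10.43, 11.66, 11.20 and 10.45 in H1975 Omomyc arrays, against 12.52, 12.22, 12.25 and 12.48 in H1975 PBS arrays. In H1299 it read 10.19, 10.20, 10.09, 10.28 and 10.24 with Omomyc, against 11.64, 11.33, 11.43, 11.75 and 11.46 with PBS. In A549 it read 13.03, 12.70 and 12.79 with Omomyc, against 13.18, 13.43, 13.15 and 13.02 with PBS. The treated arrays lay wholly below the PBS arrays in H1975 and H1299, and the groups overlapped in A549. The log2 change was -1.44 ± 0.20 in H1975 (limma adjusted p = 1.2e-05), -1.32 ± 0.19 in H1299 (adjusted p = 2.9e-05) and -0.35 ± 0.23 in A549 (adjusted p = 0.80). Within runs the change was -1.85, -0.81 and -2.03 in H1975 and -1.45, -1.24 and -1.34 in H1299. Run 3 of H1975 and run 1 of H1299 each set 1 Omomyc array against 1 PBS array. The PBS level of PSME3 was also ordered between the lines, with A549 highest (H1975 minus A549 -0.83 ± 0.21, A549 minus H1299 1.67 ± 0.20).

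The 250 bases before the PSME3 start site (RefSeq, GRCh38.p14, chr17:42833147-42833396, plus strand) are shown because this gene was called lower in 2 lines and its promoter holds an E-box. Capitals mark the E-box and a CCAAT box on the opposite strand.
PSME3: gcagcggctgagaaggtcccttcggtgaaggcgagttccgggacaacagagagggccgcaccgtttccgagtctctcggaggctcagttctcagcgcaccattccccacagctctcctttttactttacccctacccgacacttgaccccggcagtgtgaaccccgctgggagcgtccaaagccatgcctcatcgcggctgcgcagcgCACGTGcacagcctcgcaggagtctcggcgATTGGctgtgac
CACGTG was in 3 of the 46 member promoters (6.5%), those of PSME3, PSMB3 and PSMD9, beside 6.34% of all promoters. PSMB3 and PSMD9 were not called for Omomyc in any line.

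Among 19S subunits, 5 of 14 fell in H1299, beside 4.52% of all genes called lower. A negative change was seen in 12 of the 14, beside 49.8% of all genes, with a median of -0.53. PSMD14 read 12.43, 12.74, 12.63, 12.28 and 12.39 in H1299 Omomyc arrays, against 13.81, 13.57, 13.78, 13.65 and 13.53 in H1299 PBS arrays. All treated arrays stood below all PBS arrays by a wide margin, and the log2 change was -1.17 ± 0.19 (limma adjusted p = 0.00011). In H1975 PSMD14 read 11.62, 11.66, 12.22, 11.95 and 11.29 with Omomyc, against 11.31, 11.77, 11.34 and 11.21 with PBS, and in A549 12.37, 12.35 and 12.21 with Omomyc, against 13.03, 12.10, 12.58 and 12.41 with PBS. In both of these lines the groups overlapped, and the changes were 0.34 ± 0.20 and -0.22 ± 0.23 (adjusted p = 0.35 and 0.92).

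PSMD1, a large scaffold of the 19S base, had the largest negative change of the family in H1299. It read 10.33, 11.54, 10.70, 9.98 and 10.45 with Omomyc, against 11.87, 12.15, 12.22, 11.65 and 11.84 with PBS. The groups did not overlap, although 1 Omomyc array came close to the PBS range, and the log2 change was -1.34 ± 0.25 (limma adjusted p = 0.00058). The change was -0.34 ± 0.27 in H1975 and -0.21 ± 0.30 in A549, neither called. PSMD11 read 11.93, 12.10, 11.86, 11.88 and 11.49 in H1299 Omomyc arrays, against 12.92, 12.88, 12.79, 12.73 and 12.42 in H1299 PBS arrays. Its groups were apart, with a log2 change of -0.90 ± 0.18 (adjusted p = 0.0016). In A549 its 3 Omomyc values of 14.12, 14.11 and 14.18 also lay below the PBS values of 14.35, 14.30, 14.50 and 14.23, by a change of -0.21 ± 0.22 that was not called (adjusted p = 0.93).

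The ATPases PSMC2 and PSMC3, part of the ring that unfolds substrates, fell in H1299. PSMC2 read 12.09, 12.30, 12.29, 11.60 and 11.60 with Omomyc, against 12.82, 13.26, 13.29, 12.66 and 12.55 with PBS. PSMC3 read 9.40, 9.66, 9.76, 9.58 and 9.60 with Omomyc, against 10.42, 10.85, 11.00, 10.45 and 10.59 with PBS. Neither gene's groups overlapped, and the log2 changes were -0.94 ± 0.21 for PSMC2 and -1.06 ± 0.24 for PSMC3 (limma adjusted p = 0.003 and 0.0039). In A549 PSMC2 read 14.19, 14.16 and 14.13 with Omomyc, against 14.08, 13.67, 13.57 and 13.36 with PBS. The A549 treated arrays thus lay above the PBS arrays, by 0.49 ± 0.25, without a call (adjusted p = 0.60). In H1975 PSMC3 read 10.19, 9.46, 10.74, 10.79 and 9.74 with Omomyc, against 11.45, 11.05, 10.74 and 10.38 with PBS. Those groups overlapped, and the change of -0.72 ± 0.25 (adjusted p = 0.064) was called only with run as a block (adjusted p = 0.025).

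PSMA4 was the single core subunit that fell in H1299. It read 11.21, 11.42, 11.18, 11.02 and 11.10 with Omomyc, against 11.78, 11.94, 12.50, 11.79 and 11.77 with PBS. The groups did not overlap, PBS replicate 3 stood above the other PBS arrays, and the log2 change was -0.77 ± 0.23 (limma adjusted p = 0.03). Without that array the adjusted p was 0.10, and the call was lost in 6 of the 10 fits that left out 1 array. The 14 standard core subunits of H1299 had 12 negative changes with a median of -0.27, beside -0.53 for the 19S subunits, and this difference between classes was not tested. Over all 44 members, 9 had every H1299 Omomyc array below every PBS array, while 4.09% of all genes did, and 0 members had every array above, while 3.91% of all genes did. Besides the called genes these were PSMC4 and PSMD2. In H1975 2 members (PSME3 and PSMA8, which was at background) lay wholly below, beside 5.35% of all genes, and 1 (PSMG2) wholly above, beside 5.18%. In A549 1 (PSMD11) lay wholly below, beside 3.60% of all genes, and 3 (PSMA5, PSMC2 and PSMD4) wholly above, beside 5.79%.

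**Figure D4:**
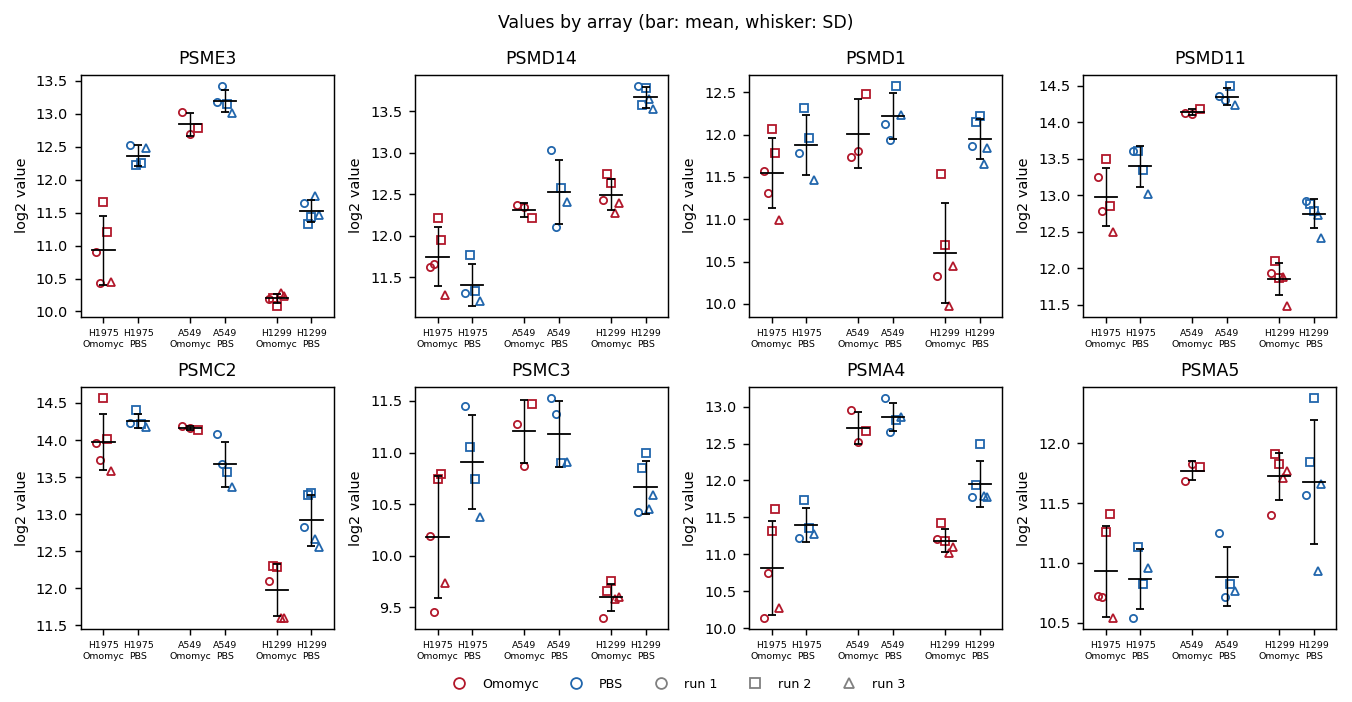
Every array's log2 value for PSME3, PSMD14, PSMD1, PSMD11, PSMC2, PSMC3, PSMA4 and PSMA5, with Omomyc (red) left of PBS (blue) within each line, symbols by run, a bar at each group mean and whiskers of 1 SD. In H1299 the Omomyc arrays of the first 7 genes lie below the PBS arrays (PSME3 at 10.09 to 10.28 against 11.33 to 11.75), and PSMA5 in A549 lies above (11.68 to 11.83 against 10.71 to 11.25).

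The 250-base windows of 4 more genes that fell in H1299 are given for comparison with PSME3 (RefSeq, GRCh38.p14; PSMD14 chr2:161308175-161308424, plus strand; PSMD1 chr2:231056617-231056866, plus strand; PSMC2 chr7:103347393-103347642, plus strand; PSMC3 chr11:47426440-47426689, minus strand). Capitals again mark matches to the 5 motifs.
PSMD14: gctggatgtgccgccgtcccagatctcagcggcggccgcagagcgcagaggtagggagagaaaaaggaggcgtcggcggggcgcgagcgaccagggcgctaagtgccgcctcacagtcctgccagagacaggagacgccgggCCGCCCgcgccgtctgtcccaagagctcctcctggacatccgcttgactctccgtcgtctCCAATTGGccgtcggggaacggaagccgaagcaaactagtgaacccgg
PSMD1: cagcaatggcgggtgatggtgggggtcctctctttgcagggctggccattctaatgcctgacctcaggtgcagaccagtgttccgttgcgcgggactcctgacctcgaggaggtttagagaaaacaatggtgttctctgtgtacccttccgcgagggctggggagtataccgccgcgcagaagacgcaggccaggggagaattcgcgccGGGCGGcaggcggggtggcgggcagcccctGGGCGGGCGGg
PSMC2: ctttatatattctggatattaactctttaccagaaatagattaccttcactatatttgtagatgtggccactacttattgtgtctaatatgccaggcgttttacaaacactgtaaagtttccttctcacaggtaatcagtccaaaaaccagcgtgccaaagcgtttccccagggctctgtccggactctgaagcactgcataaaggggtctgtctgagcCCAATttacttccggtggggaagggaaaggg
PSMC3: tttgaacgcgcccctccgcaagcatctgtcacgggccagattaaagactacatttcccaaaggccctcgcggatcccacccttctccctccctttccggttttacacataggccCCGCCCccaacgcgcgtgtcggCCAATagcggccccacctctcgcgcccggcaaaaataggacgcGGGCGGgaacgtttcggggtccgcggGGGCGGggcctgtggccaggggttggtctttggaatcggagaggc
None of the 4 windows held CACGTG. PSMD14 held a GC box and 2 CCAAT boxes, PSMC3 held 3 GC boxes and a CCAAT box, PSMD1 held 3 GC boxes, of which 1 pair overlapped, and PSMC2 held a CCAAT box alone. The CCAAT pair in PSMD14 overlapped on opposite strands.

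The immunoproteasome genes went the other way in H1299 without passing the test. PSMB9 read 10.53, 11.20, 11.39, 10.73 and 11.37 in H1299 Omomyc arrays, against 10.08, 10.73, 10.95, 9.77 and 9.31 in H1299 PBS arrays. PSMB8 read 10.61, 11.19, 11.80, 10.84 and 10.94 with Omomyc, against 10.39, 10.75, 11.42, 10.16 and 9.63 with PBS. The groups overlapped for both, and the log2 changes were 0.88 ± 0.29 for PSMB9 (limma adjusted p = 0.06) and 0.61 ± 0.29 for PSMB8 (adjusted p = 0.25). The adjusted p of PSMB9 was 0.027 with the replicate number as a block, which by the rule used here pairs H1299 arrays, and 0.0079 with run as a block. For PSMB8 it was 0.11 and 0.049. The PSMB9 change within runs was 0.45, 0.46 and 1.51. PSMB10 differed by 0.45 ± 0.42 (adjusted p = 0.67). With run as a block 11 members (25%) were called in H1299, beside 15.9% of all genes: the 7 above, PSMD12 and PSMD2 were lower and PSMB8 and PSMB9 higher.

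In the same line B2M rose by 0.89 ± 0.20, HLA-C, a class I heavy chain, by 1.49 ± 0.48 and TAPBP, the tapasin gene, by 0.66 ± 0.21 (limma adjusted p = 0.0033, 0.047 and 0.049). These were 3 of the 8 interferon and antigen-processing genes, beside 4.35% of all genes called higher, and none of the 8 was called lower. The changes of TAP2 and ERAP1 were negative, at -0.41 and -0.04. IRF1, NLRC5 and TAP1 were at 0.10, 0.15 and 0.29 and were not called (adjusted p = 0.90, 0.89 and 0.77). NLRC5 lay in the background range of up to 6.69 with Omomyc and with PBS, so its change in H1299 could not be read. The H1299 group means of TAP1 and IRF1 lay near 6.69, so small changes of these genes could not be read.

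In H1975 the immunoproteasome genes were not called. PSMB9 read 13.38, 12.82, 14.03, 13.30 and 12.99 with Omomyc, against 13.59, 13.47, 12.91 and 13.07 with PBS, overlapping groups with a change of 0.04 and a 95% interval of -0.59 to 0.68. PSMB10 read 7.12, 6.77, 8.59, 7.02 and 5.70 with Omomyc, against 8.77, 8.27, 7.71 and 7.47 with PBS. One Omomyc array lay among the PBS arrays and the others below, and the log2 change of -1.01 ± 0.44 was not called (limma adjusted p = 0.16), but was with run as a block (adjusted p = 0.022). With run as a block 6 members (13.6%) were called in H1975, beside 19.2% of all genes: PSME3, PSMB10, PSMC3 and PSMD12 were lower and PSMB7 and the assembly chaperone PSMD10 higher. Of the interferon list, ERAP1, a peptide-trimming aminopeptidase, fell by 0.82 ± 0.21 in H1975 (adjusted p = 0.0095). No gene of the list was called higher, and 2 of the 8 had a positive change. Of 5 leukocyte and endothelial markers, CD68 was called higher in H1975 (log2 change 1.49) while the other 4 stayed in the background range in both groups, and the part of this in the H1975 values was not tested.

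In A549 the immunoproteasome changes were 0.03 for PSMB8, 0.10 for PSMB9 and 0.35 for PSMB10, and none was called. The member with the smallest p was PSMA5, an alpha ring subunit, which read 11.68, 11.83 and 11.80 with Omomyc, against 11.25, 10.71, 10.82 and 10.76 with PBS. Its groups were apart, and the log2 change of 0.89 ± 0.26 did not pass (limma adjusted p = 0.12), but did with run as a block (adjusted p = 0.037), when it was the only member called beside 2.84% of all genes. With the replicate number as a block, which by the rule used here pairs A549 arrays, its adjusted p was 0.17 (change 0.84), and 0.12 with both blocks. The next was PSMG4, at 9.56, 9.77 and 9.88 with Omomyc, against 9.66, 8.98, 8.62 and 8.87 with PBS. One PBS array lay within the treated range, and the change was 0.70 ± 0.28 (adjusted p = 0.37). With only 3 Omomyc arrays, A549 intervals are the widest of the lines.

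PSME1 was called in no line, with changes of -0.01 ± 0.31 in H1975, 0.51 ± 0.35 in A549 and 0.46 ± 0.29 in H1299. Its Omomyc arrays read 11.64, 11.52, 12.40, 11.67 and 11.29 in H1975, 10.49, 10.27 and 11.76 in A549, and 10.43, 10.37, 11.41, 10.63 and 10.13 in H1299. These overlapped the PBS arrays of the same line in each case. The inhibitor PSMF1 was likewise not called, with changes of 0.10 in H1975, -0.17 in A549 and 0.22 in H1299. The 7 assembly chaperones had no call in any line without a block. Of all genes, 11.8% were called in H1975, 1.19% in A549 and 8.87% in H1299. With run as a block PSMD10 was called higher in H1975 (limma adjusted p = 0.037). The changes of the 7 ran from -0.57 (PSMG1) to 0.33 (PSMD5) in H1299 and from -0.55 (PSMG3) to 0.70 (PSMG4) in A549. In H1975 they ran from -0.27 (PSMG4) to 0.46 (PSMD10).

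A moderated F test over all genes asked whether the Omomyc change differs between the lines. It called 3 members (6.82%), PSMD14, PSMC2 and PSME3, beside 8.18% of all genes. For PSMD14 the H1975 change exceeded the H1299 change by 1.51 ± 0.27 (limma adjusted p = 0.00063 for that contrast and 0.0015 for the F test). For PSMC2 the A549 change exceeded the H1299 change by 1.43 ± 0.32 (adjusted p = 0.014, F test 0.014). For PSME3 the H1975 minus A549 difference of change was -1.09 ± 0.31 (adjusted p = 0.038, F test 0.039), and A549 minus H1299 was 0.97 ± 0.30 (adjusted p = 0.087). H1975 and H1299 differed by -0.11 with a 95% interval of -0.69 to 0.46. The F test of PSME3 was not past the threshold with the replicate block (adjusted p = 0.094), after median centring (adjusted p = 0.19) or in 14 of the 26 fits that left out 1 array (0.007 to 0.13). PSMD14 and PSMC2 kept their calls in all 26. The replicate block also joined same-numbered H1975 arrays, although the numbers were not taken to pair arrays in that line. With run as a block 8 members (18.2%) were called, beside 17.4% of all genes, and the 5 gained were PSMB10, PSMB8, PSMD1, PSMD10 and PSMG3.

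Genes around the proteasome were taken from lists written for this work. Of all genes, 5.57% were called higher and 6.28% lower in H1975, and 4.35% and 4.52% in H1299, without a block. With run as a block 19.2% of all genes were called in H1975 and 15.9% in H1299. Beside these shares, 1 or 2 calls in lists this short say little about a list. Of 7 further subunit and partner genes, PAAF1, a 19S ATPase-binding protein, rose in H1975 (0.75 ± 0.24, limma adjusted p = 0.039) and no other passed in any line without a block. The deubiquitinase UCHL5 was at -0.89 ± 0.32 in H1299 (adjusted p = 0.086), which was called with run as a block (adjusted p = 0.00035). Of 7 transcription and control genes, BACH1 and NFE2L2, regulators of antioxidant genes, rose in H1975 by 1.54 ± 0.23 and 0.72 ± 0.18 (adjusted p = 1.9e-05 and 0.0065), and none passed in A549 or H1299 without a block. BACH1 was at 0.63 ± 0.21 in H1299 (adjusted p = 0.066), which was called with run as a block (adjusted p = 0.017). NFE2L1 was not called, with changes of 0.35 in H1975, 0.37 in A549 and 0.16 in H1299 (adjusted p = 0.18, 0.56 and 0.68). Of 12 ubiquitin and shuttle genes, the activating enzyme UBA6 rose by 1.28 ± 0.25 and UFD1, a cofactor of the p97 segregase, fell by 0.85 ± 0.25 in H1975 (adjusted p = 0.00074 and 0.023). With run as a block UBA1, the main activating enzyme, at -0.65, and ZFAND2A, at 0.80, were also called there (adjusted p = 0.016 and 0.019). In H1299 ZFAND5, a proteasome-binding zinc finger protein, rose by 0.71 ± 0.19 (adjusted p = 0.013). Of the 13 members that MYC target collections commonly hold, 3 fell in H1299 (PSMA4, PSMD1 and PSMD14), and none was called in H1975 or A549. In H1299 7 of all 44 members and 4.52% of all genes were called lower, and the PSMA4 call was lost in 6 of 10 fits without 1 array.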

How the data were processed

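RNA of 26 arrays of transcript cluster probe sets was measured. The deposited values are log2 intensities that the authors made with RMA and Partek, per the submitters' processing notes, which give no versions. Their range of 1.35 to 19.91 is wide for RMA. Whether all arrays were normalized together, and the genome build, are not given in the sources used here. Of 24351 features, 17709 had 1 gene symbol, 0 had several and 6642 had none, which left 17687 genes. Where a gene had over 1 probe set (20 genes), its brightest by mean was kept. Detection calls did not enter, and the number of arrays limits the precision.

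Groups came from the labels, which say biological replica. The runs were made by clustering each array's sorted values into 3 clusters, a number set beforehand, and no label names them as batches. limma 3.58.1 in R 4.3.3 fitted 1 coefficient per group with lmFit and eBayes to all arrays, leaving 20 residual degrees of freedom, and p-values were Benjamini-Hochberg adjusted over all 17687 genes. The fit was tested on simulated data, where 200 genes were given a change of 1 or 2 log2 units in equal numbers. Of the changes of 1, 43 were recovered in H1975, 31 in A549 and 58 in H1299. Of the changes of 2, 94, 84 and 98 were recovered. A change of 1 could thus often go uncalled, most often in A549. The contrasts were Omomyc minus PBS within a line, the F test of their differences, and PBS between lines. Alternatives were quantile normalization, median centring, a filter on low genes, the mean of probe sets, trend and robust settings, array weights, the replicate number as a block, run as a block, both, each run alone, the 2 groups alone, an adjusted p under 0.01 and leaving out each array.

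Members and lists were chosen with earlier results of these data known. Array values are given for PSMB8, PSMB9, PSMB10 and PSME1, for called members of each Omomyc contrast (or the 2 with the smallest p), and for the 3 members with the smallest p in the F test and in each PBS contrast. Other members are named as extremes or examples of their class, and some of these examples were chosen after their values were seen. Of other lists, called genes with the smallest p are named, and IRF1, NLRC5, TAP1, NFE2L1, UBA1 and ZFAND2A were added after their values were seen.

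To see whether replicate numbers pair arrays, deviations from the group means were correlated between same-numbered arrays. The correlation was 0.26 to 0.39 over 5 pairs of H1299 and 0.11 to 0.2 over 3 pairs of A549, so the numbers were taken to pair arrays there. In H1975 it was -0.2 to 0.33 over 4 pairs, and they were not. Each pair of H1299 and A549 lay in 1 run, and run was not removed first, so the correlation cannot tell pairing from run.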

Additional observations from a re-analysis of the deposited data

Results flagged for a closer look

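In H1299 the PSMG4 value of Omomyc replicate 4 was 10.66, while the other Omomyc arrays lay at 10.94 to 11.01. The PSMA4 value of PBS replicate 3 in H1299 was 12.50, while the other PBS arrays lay at 11.77 to 11.94. Each gap was large for the range of its group. Of 70 groups checked for such gaps, chance would mark about 1 in 20.

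The change with Omomyc differed between the lines by the F test over all genes (limma, Benjamini-Hochberg) for PSMD14 (adjusted p = 0.001549), PSMC2 (adjusted p = 0.01377) and PSME3 (adjusted p = 0.03906).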

How the results depend on the processing

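No called difference of a named member changed sign under the alternatives run. Over all named members and alternatives, 53 results gained a call, 74 lost it and 2113 did neither. The share of all genes called also moved with the setting. With run as a block it was 19.2% in H1975, 2.84% in A549, 15.9% in H1299 and 17.4% by the F test. The members' shares were then 13.6%, 2.27%, 25% and 18.2%. Without a block the shares of all genes were 11.8%, 1.19%, 8.87% and 8.18%. For the other alternatives it is not given here, so their counts cannot be set against all genes. In H1975 the number of members called for Omomyc was 1, and it was 5 with quantile normalization, 3 with median centring, 2 with the low-gene filter, 2 with trend and robust settings, 2 with array weights, 6 with run as a block, and 3, 0 and 2 in runs 1, 2 and 3 alone. Leaving out 1 array gave 1 to 4, with 2 without PBS replicate 4 and 4 without Omomyc replicate 3 or 4. In A549 the 0 members became 1 with array weights and 1 with run as a block, and leaving out 1 array gave 0 to 0. In H1299 the 7 became 11 with run as a block, and 0 and 2 in runs 1 and 2 alone, which hold 2 and 4 H1299 arrays, and leaving out 1 array gave 6 to 8. The F test's 3 became 8 with run as a block, 0 and 0 in runs 1 and 2 alone and 1 at an adjusted p under 0.01, and leaving out 1 array gave 2 to 4. In PBS arrays H1975 against A549 had 20 members called, 13, 11 and 12 in the runs alone and 15 to 19 without 1 array. H1975 against H1299 had 25, 14 and 16 in runs 1 and 2 alone and 21 to 25 without 1 array. A549 against H1299 had 23, 13 in run 2 alone and 23 to 26 without 1 array. Fits on a run alone rest on fewer arrays. Median centring moved differences by -0.16 to 0.11.

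With the replicate number as a block, 1 member was called in H1975, 0 in A549, 10 in H1299 (the same 7 with PSMB9, PSMD12 and PSMD2) and 3 by the F test, where PSMD1 took the place of PSME3. The block also joined same-numbered H1975 arrays, which were not taken to be pairs, so its H1975 and F test counts rest on that. It could not be fitted for the PBS contrasts between lines. Where values lie near the background of 6.69, as for PSMB10, small differences cannot be read.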
